A study of Caenorhabditis elegans with 21 samples.

Results

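The glutathione S-transferase genes of Caenorhabditis elegans were taken as all genes whose name begins with gst-, gsto- or gstk-. Names came from the Ensembl 115 annotation (WBcel235), to which the deposited transcripts were matched by transcript or sequence name. There were 49 such genes among the 22037 genes measured, 44 named gst-, 3 gsto- and 2 gstk-, with 58 transcripts in all. Of these, 36 passed the expression filter and were among the 13043 genes tested. The other 13 had 3 to 117 estimated counts summed over all 21 libraries, and no tested member passed the filter through 1 genotype alone.

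Glutathione S-transferases join the thiol tripeptide glutathione to reactive or foreign compounds, which can then be exported by transporters. The cytosolic enzymes fall into classes such as pi, omega and zeta, and the kappa class is a separate fold found in mitochondria and peroxisomes. In worms many of them are made in the intestine, and several are known targets of the oxidative stress factor SKN-1. The pathway studied here acts on HIF-1, the hypoxia-inducible transcription factor. EGL-9 hydroxylates HIF-1 when oxygen is present, and VHL-1 belongs to the ubiquitin ligase that binds the hydroxylated protein. RHY-1 is a membrane protein placed before EGL-9 in the pathway.

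RNA of whole worms was sequenced from 7 genotypes with 3 libraries each. There were 4 mutants in 1 gene, namely rhy-1(ok1402), egl-9(sa307), hif-1(ia4) and vhl-1(ok161), and the doubles egl-9(sa307);vhl-1(ok161) and egl-9(sa307) hif-1(ia4), with N2 as the wild type. They are called egl-9, rhy-1, vhl-1, egl-9;vhl-1, hif-1 and egl-9 hif-1 from here on. All groups were young adults with no eggs in view, fed OP50 on NGM plates, and a sample pooled 30 to 50 worms. Each mutation was represented by 1 allele. Nothing in the labels says that replicate libraries came from separate cultures, and the spread that p-values rest on may be technical. In RNA of whole worms, fewer cells of a type and less RNA per cell cannot be told apart.

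Libraries held 7329864 to 10102598 estimated counts. The hif-1 transcript averaged 17.7 CPM (counts scaled to library size by edgeR's TMM method) in hif-1 and 13.7 CPM in egl-9 hif-1, against 115 CPM in N2. The vhl-1 transcript had 0 counts in every vhl-1 and egl-9;vhl-1 library, against 45 counts summed over the 3 N2 libraries. The egl-9 and rhy-1 transcripts were not lost in their own mutants, so a count per gene does not check those labels. Marker lists moved with genotype. The summed level of 19 molt and larval epidermis genes was 105 to 355 CPM in egl-9, 125 to 354 in rhy-1, 63.4 to 156 in vhl-1 and 71.3 to 222 in egl-9;vhl-1, against 45.1 to 56.9 in hif-1, 47.6 to 50.7 in egl-9 hif-1 and 43.1 to 47.1 in N2. Of the 17 tested genes of that list, 7 rose in egl-9, 9 in rhy-1, 2 in vhl-1, 5 in egl-9;vhl-1 and 0 in both hif-1 and egl-9 hif-1 (edgeR). Of all tested genes, 14.8%, 16.7%, 6.54%, 16.5%, 8.21% and 3.49% rose in these genotypes, in the same order. No gene of any marker list was at 0 in a whole genotype.

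The family was dominated by few genes. Per length, gst-7 had the highest level, with a mean of 790 TPM (a level scaled to transcript length and library size) over the 21 libraries, or 23.1% of the family's summed TPM. It was followed by gst-19 with 599 TPM, gst-10 with 303 TPM, gst-1 with 267 TPM and gst-27 with 259 TPM. Over the 21 libraries these 5 genes held 64.9% of the summed level. In N2 alone gst-19 averaged 11.6 TPM, against 584 TPM for gst-7, 436 for gst-10, 326 for gst-1 and 272 for gst-27. Mean levels were over 10 TPM for 22 members and under 1 TPM for 11. Next in order came gst-4 with 244 TPM and gst-13 with 231 TPM. Among the 18 tested members that reached 10 CPM in some genotype, 11 had a highest genotype mean over 2 times the lowest, and the median ratio was 2.48.

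The mean summed level of the family was above that of N2 in every mutant genotype except egl-9 hif-1. It was 3554 ± 202 TPM in egl-9, 3487 ± 91.6 in rhy-1, 3576 ± 441 in vhl-1, 3861 ± 91.8 in egl-9;vhl-1, 3765 ± 215 in hif-1 and 2746 ± 43.01 in egl-9 hif-1, against 2948 ± 69.3 in N2 (mean ± SD, n = 3 each). Without gst-19 the mean sums were 2459, 2492 and 2392 TPM in egl-9, rhy-1 and egl-9;vhl-1 and 2969 TPM in vhl-1, against 2936 TPM in N2. In hif-1 the sum without gst-19 was 3756 TPM, so the excess over N2 remained there and not in egl-9, rhy-1 and egl-9;vhl-1. These sums are a description and were not tested.

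**Figure D1:**
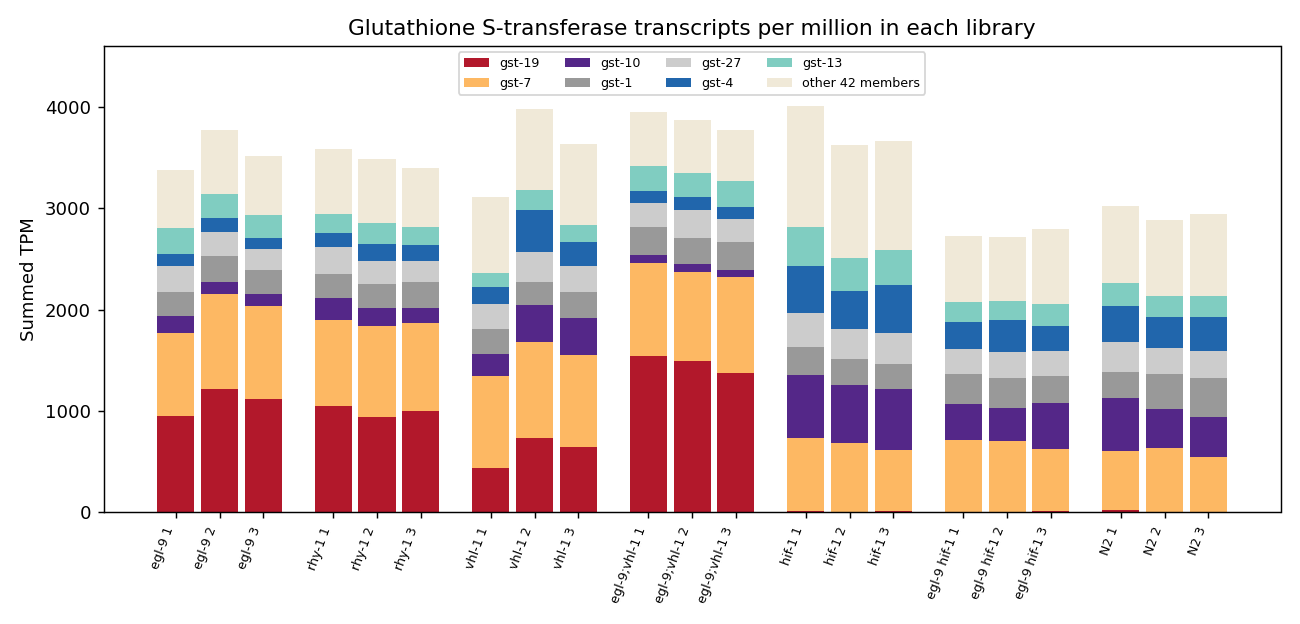
Summed level of the 49 glutathione S-transferase genes (TPM, y axis) in each of the 21 libraries, with 7 of the more abundant members in colours and the other 42 members in beige. The red segment, gst-19, is large in the egl-9, rhy-1, vhl-1 and egl-9;vhl-1 libraries and barely visible in hif-1, egl-9 hif-1 and N2, and the hif-1 bars are tall without it.

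The genes lay on all chromosomes, 26 of 49 on chromosome II. With a gap of at most 10000 bases between neighbours, 25 members fell into 4 runs (WBcel235). One run on chromosome II, at 4879891 to 4893573, held gst-6, gst-7, gst-8 and gst-9. Another at 13608154 to 13630887 held gst-20, gst-24, gst-15, gst-14, gst-12, gst-16, gst-19, gst-17 and gst-18. The last run of that chromosome, at 15163817 to 15185389, held gst-26, gst-27, gst-28, gst-29, gst-39, gst-31, gst-32, gst-34 and gst-35. On chromosome IV, gst-3, gst-2 and gst-4 lay at 10139380 to 10143099, with gst-2 and gst-4 on opposite strands and 163 bases apart. Elsewhere, gst-10 lies on chromosome V at 2561690 to 2564645, gst-38 on V at 15915162 to 15916070, gst-1 on III at 9059331 to 9060181 and gst-42 on X at 11726264 to 11727936. All members are annotated as protein coding. The libraries carry no strand, and gst-5, gst-9 and gst-36 overlap nos-1, msp-33 and scav-5 on the opposite strand in the annotation. Their estimated counts were within 0.01 of a whole number in all 21 libraries.

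Each run held only 3 or 6 tested members, so its calls are a description. In egl-9 the run with gst-6 and gst-7 (3 tested) held 2 members that rose and 0 that fell. The run with gst-26 to gst-35 (6 tested) held 0 that rose and 3 that fell. Among all tested genes 14.8% were called higher and 11% lower in egl-9. The run with gst-26 to gst-35 also had 0 higher and 3 lower in rhy-1 and in egl-9;vhl-1 against N2. In hif-1 it had 3 higher and 0 lower, and the run with gst-6 and gst-7 had 2 higher and 1 lower. Of all tested genes, 12.8% and 18.1% were called lower in rhy-1 and egl-9;vhl-1, and 8.21% higher in hif-1. In egl-9 the second run of chromosome II (6 tested) held 2 members that rose, gst-16 and gst-19, and also gst-20, which fell. The run with gst-4 (3 tested) held 1 call in that comparison, gst-4 itself.

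In egl-9, which lacks the HIF-1 hydroxylase, gst-19, gst-16, gst-7, gst-30 and gst-6 rose and 12 members fell. The falls included gst-10, a pi class enzyme that conjugates the lipid peroxidation product 4-hydroxynonenal, and gst-4, a widely used reporter of SKN-1 activity. They also included gst-42, the zeta class enzyme that acts as maleylacetoacetate isomerase in tyrosine breakdown. A gene was called changed at a Benjamini-Hochberg adjusted p below 0.05 in edgeR's quasi-likelihood test, fitted over all 21 libraries. Of 36 tested members, 5 were called higher (13.9%) and 12 lower (33.3%), while 25.8% of all tested genes were called, 14.8% higher and 11% lower. The share of members called lower was thus above that of all genes, and the share called higher was near it. The median change was −0.36 for the members and 0.00 for all genes, on the log2 scale. With only egl-9 and N2 fitted, 11 members and 18.3% of all tested genes were called.

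The level of gst-19 showed the widest range in the family. It was 314, 387 and 393 CPM in egl-9, 337, 303 and 329 CPM in rhy-1, 139, 240 and 208 CPM in vhl-1 and 506.99, 490 and 450 CPM in egl-9;vhl-1. In the other genotypes it was 3.04, 0.247 and 5.21 CPM in hif-1 and 0.239, 2.20 and 3.41 CPM in egl-9 hif-1, against 8.06, 2.71 and 0.362 CPM in N2. All 12 libraries of the first 4 genotypes lay above all 9 of the others, and the hif-1, egl-9 hif-1 and N2 libraries overlapped. The N2 libraries held only 78, 23 and 3 counts of gst-19, so the size of its rise depended on them. The log2 change against N2 was 6.56 ± 0.55 in egl-9, 6.39 ± 0.55 in rhy-1, 5.66 ± 0.54 in vhl-1 and 6.96 ± 0.56 in egl-9;vhl-1 (each ± beside a log2 change is a standard error derived from its test). The largest edgeR adjusted p among these 4 comparisons was 5.29e-07. In egl-9 the change was 7.87 without N2 replicate 1, 6.37 without N2 replicate 2 and 6.05 without N2 replicate 3. The 4 comparisons share the N2 libraries. gst-19 was not called in hif-1 or in egl-9 hif-1 (−0.44 and −0.94, edgeR adjusted p = 0.697 and 0.502).

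gst-7, the most abundant member, rose by less but evenly. It was at 322, 360 and 388 CPM in egl-9, 325, 348 and 345 CPM in rhy-1, 347, 370 and 349 CPM in vhl-1 and 363, 348 and 370 CPM in egl-9;vhl-1, against 223, 241 and 219 CPM in N2. Every library of these 4 mutants was above every N2 library. The log2 changes were 0.65 ± 0.08, 0.57 ± 0.08, 0.64 ± 0.08 and 0.66 ± 0.08, with edgeR adjusted p of at most 2.36e-05. gst-16 was at 9.85, 10.6 and 10.2 CPM in egl-9, 9.73, 7.998 and 9.47 CPM in rhy-1 and 8.25, 10.3 and 10.2 CPM in egl-9;vhl-1, against 3.62, 5.53 and 3.62 CPM in N2. Its log2 changes were 1.26 ± 0.20, 1.09 ± 0.20 and 1.18 ± 0.20, and the groups did not overlap. Its level in vhl-1 was 5.70, 8.40 and 5.87 CPM, with a change of 0.65 ± 0.21 that was only just called (edgeR adjusted p = 0.0459), and 20 of 27 alternative settings ended that call, with the largest p of 0.233 without vhl-1 replicate 2. gst-7, gst-16 and gst-19 were the members called higher in all 4 of these genotypes, an overlap not counted for all tested genes here.

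**Figure D2:**
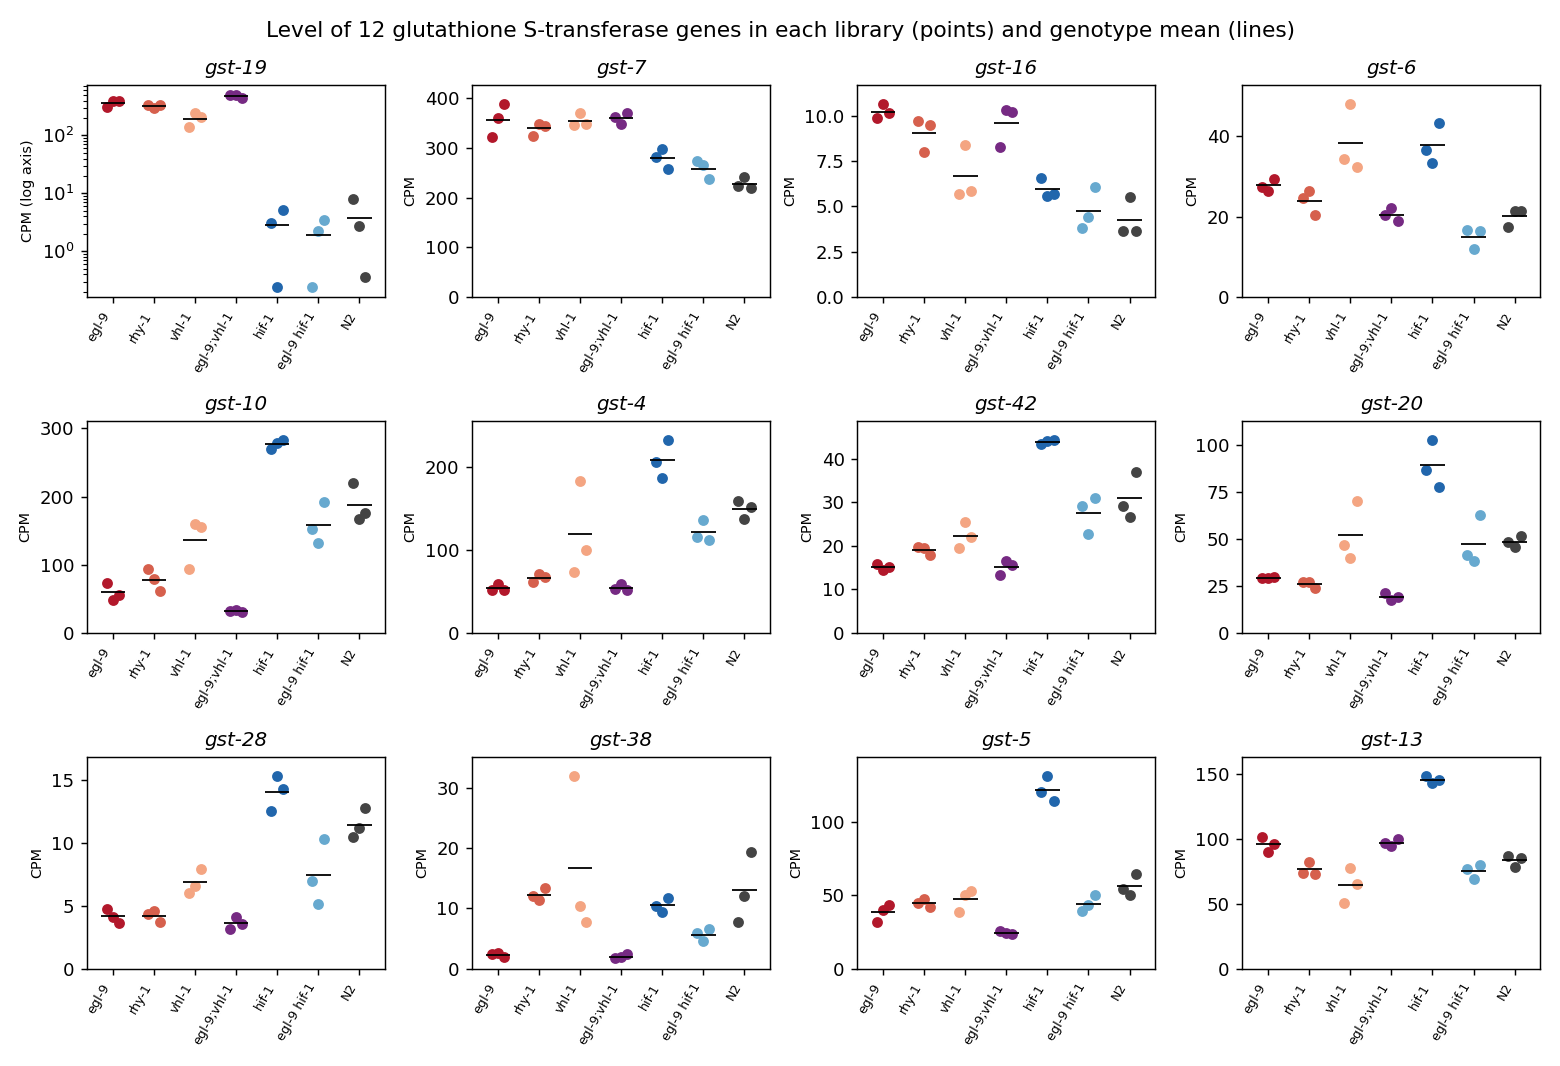
Level (CPM, y axis; log axis for gst-19 only) of 12 glutathione S-transferase genes in each library, by genotype with N2 at the right; points are libraries and lines genotype means. gst-19, gst-7 and gst-16 are high in the 4 genotypes at the left, while gst-10, gst-4, gst-42, gst-20 and gst-28 are low in egl-9, rhy-1 and egl-9;vhl-1 and high in hif-1.

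Among the genes that fell, gst-10 moved most in absolute level. It was at 73.3, 48.7 and 55.9 CPM in egl-9, 94.4, 78.5 and 62.1 CPM in rhy-1 and 32.7, 33.4 and 30.2 CPM in egl-9;vhl-1, against 220, 167 and 177 CPM in N2. All 9 mutant libraries lay below all N2 libraries, with egl-9;vhl-1 lowest. The log2 changes were −1.66 ± 0.20 in egl-9, −1.26 ± 0.19 in rhy-1 and −2.55 ± 0.20 in egl-9;vhl-1 (edgeR adjusted p = 3.23e-06, 7.63e-05 and 1.61e-08). In vhl-1 gst-10 was at 93.0, 159 and 156 CPM, below all N2 libraries but not called (−0.47 ± 0.19, edgeR adjusted p = 0.116).

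gst-4 was at 52.1, 59.0 and 51.2 CPM in egl-9, 61.2, 70.7 and 67.4 CPM in rhy-1 and 53.3, 58.3 and 51.6 CPM in egl-9;vhl-1, against 158, 137 and 152 CPM in N2. The mutant libraries were close to each other, and none overlapped N2. The log2 changes were −1.46 ± 0.21, −1.17 ± 0.20 and −1.45 ± 0.21 (edgeR adjusted p of at most 2.96e-04). The vhl-1 libraries spread over 74.0, 183 and 100 CPM and overlapped N2, with a change of −0.33 ± 0.20 (edgeR adjusted p = 0.322). Without vhl-1 replicate 2, the highest of them, gst-4 was called lower in vhl-1 (edgeR adjusted p = 4.96e-04). gst-4 overlaps dhs-12 on the same strand, but its estimated counts were whole in all 21 libraries.

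gst-42, gst-20 and gst-28 fell as well. gst-42 was at 15.9, 14.4 and 15.1 CPM in egl-9, against 29.0, 26.6 and 37.04 CPM in N2, and its change was −1.03 ± 0.14 (edgeR adjusted p = 1.25e-05). gst-20 was at 29.1, 29.2 and 29.8 CPM in egl-9, against 48.7, 45.8 and 51.5 CPM in N2, and its change was −0.73 ± 0.18 (edgeR adjusted p = 0.00585). gst-28 was at 4.75, 4.12 and 3.62 CPM in egl-9, against 10.4, 11.2 and 12.8 CPM in N2, and its change was −1.46 ± 0.21 (edgeR adjusted p = 3.21e-05). None of these groups overlapped. In rhy-1 the changes were −0.70, −0.90 and −1.44, and in egl-9;vhl-1 they were −1.02, −1.33 and −1.65, all called. Together with gst-4, gst-10, gst-34 and gst-36, they made 7 members called lower in egl-9, rhy-1 and egl-9;vhl-1. This overlap was not counted for all tested genes here, and the comparisons share the N2 libraries. Of all tested genes, 11%, 12.8% and 18.1% were called lower in these genotypes, in the same order. gst-34 was a low gene, with 4, 0 and 2 counts in the egl-9 libraries against 13, 7 and 10 in N2.

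gst-38 was low in egl-9 and egl-9;vhl-1. It was at 2.37, 2.53 and 1.87 CPM in egl-9 and 1.79, 1.90 and 2.36 CPM in egl-9;vhl-1, against 7.75, 12.004 and 19.4 CPM in N2. The log2 changes were −2.52 ± 0.46 and −2.67 ± 0.46 (edgeR adjusted p = 3.44e-04 and 1.75e-04), and the groups did not overlap. The rhy-1 libraries, at 12.1, 11.4 and 13.4 CPM, lay within the N2 range, and the difference between egl-9 and rhy-1 was not tested. The vhl-1 libraries were at 32.0, 10.4 and 7.71 CPM.

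Other changes in egl-9 were smaller. gst-5 fell by 0.55 on the log2 scale and was called in every alternative. gst-30 was a low gene, at 2.49, 5.45 and 6.66 CPM in egl-9 against 2.27, 2.35 and 2.78 CPM in N2. Its change of 0.98 lost its call without N2 replicate 1 (edgeR adjusted p = 0.0826), N2 replicate 2 (0.0865), egl-9 replicate 2 (0.0873) or egl-9 replicate 3 (0.195). The fall of gst-36 by 0.48 lost its call without N2 replicate 3 (edgeR adjusted p = 0.0983). gst-1, a pi class gene, was at 101, 111 and 112 CPM in egl-9 against 109, 144 and 166 CPM in N2, groups that overlapped. Its change of −0.37 ± 0.11 lost its call without N2 replicate 2 (edgeR adjusted p = 0.054), N2 replicate 3 (0.129) or egl-9 replicate 1 (0.0648). The rise of gst-6 by 0.47 ± 0.16 lost its call without N2 replicate 1 (edgeR adjusted p = 0.122), egl-9 replicate 1 (0.0586) or egl-9 replicate 3 (0.1). The fall of the kappa class gene gstk-1, −0.49 ± 0.15, lost its call without any of the egl-9 libraries (0.0516 to 0.0672) and without N2 replicate 1 (0.0772) or N2 replicate 2 (0.067).

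In rhy-1, gst-7, gst-16 and gst-19 rose and gst-4, gst-10 and gst-42 were among the members that fell. Among the 36 tested members, 3 were called higher and 10 lower in rhy-1, while 29.5% of all tested genes were called, 16.7% higher and 12.8% lower. Beside the 7 members named above, gst-1, gst-15 and gst-26 were called lower. gst-1 changed by −0.42 ± 0.11 (edgeR adjusted p = 0.00609), or 0.0503 without N2 replicate 3. gst-26 changed by −0.29 ± 0.10 (edgeR adjusted p = 0.0295), and lost its call without N2 replicate 1 (0.0614), N2 replicate 2 (0.0925), rhy-1 replicate 2 (0.0819) or rhy-1 replicate 3 (0.0805). gst-15 was a low gene with 6, 3 and 9 counts in rhy-1 against 14, 15 and 14 in N2, and it lost its call without rhy-1 replicate 2 (edgeR adjusted p = 0.0812).

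In vhl-1, gst-19, gst-7 and gst-6 rose, and the falls were small. The calls were 5 higher and 5 lower among 36 tested members, while 12.5% of all tested genes were called in vhl-1, 6.54% higher and 5.95% lower. gst-6 was at 34.4, 47.9 and 32.2 CPM in vhl-1, against 17.5, 21.4 and 21.4 CPM in N2, with no overlap. Its change was 0.93 ± 0.15 (edgeR adjusted p = 3.98e-04). The falls were those of gst-28 (−0.74), gst-36 (−0.57), gst-42 (−0.47), gst-1 (−0.45) and gst-13 (−0.38), with edgeR adjusted p between 0.0102 and 0.0264. Each lost its call without at least 1 library. Without N2 replicate 3 the edgeR adjusted p was 0.0711 for gst-28, 0.0672 for gst-36, 0.139 for gst-42, 0.0732 for gst-1 and 0.0728 for gst-13. Without vhl-1 replicate 1 it was 0.0871 for gst-28, 0.0599 for gst-36, 0.123 for gst-42 and 0.137 for gst-13. Without vhl-1 replicate 2 it was 0.0632 for gst-28 and 0.0532 for gst-1, without vhl-1 replicate 3 it was 0.0551 for gst-42, and without N2 replicate 1 it was 0.0758 for gst-13. The count of members called fell to 3 without N2 replicate 3 and to 5 without vhl-1 replicate 1. The share of all tested genes called was 9.03% and 7.59% in these fits.

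In egl-9;vhl-1, as in egl-9, gst-19 rose and gst-10, gst-4 and gst-38 fell. Against N2, 4 tested members were called higher and 10 lower in egl-9;vhl-1, while 34.6% of all tested genes were called, 16.5% higher and 18.1% lower. Against vhl-1, 2 members were called higher and 11 lower in egl-9;vhl-1, while 17.2% of all tested genes were called, 7.17% higher and 10% lower. Against egl-9, 0 were called higher and 2 lower in egl-9;vhl-1, while 8.47% of all tested genes were called, 1.78% higher and 6.69% lower. In that comparison 5 members had an unadjusted p below 0.05, with no matching share of all tested genes given here. The 2 called lower were gst-5 and gst-10. gst-5 was at 25.4, 24.7 and 23.6 CPM in egl-9;vhl-1, against 31.8, 40.02 and 43.7 CPM in egl-9. The groups did not overlap, and the change was −0.65 ± 0.13 (edgeR adjusted p = 0.00771). The change of gst-10 between these genotypes was −0.89 ± 0.20 (edgeR adjusted p = 0.0125), and it lost its call without egl-9 replicate 1 (0.0923), egl-9;vhl-1 replicate 1 (0.0528) or egl-9;vhl-1 replicate 3 (0.0563). The count was 1 without each of these 3 libraries and 4 without vhl-1 replicate 2. Of all tested genes, 1.87%, 2.27% and 3.16% were called without these 3 libraries and 9.22% without vhl-1 replicate 2. Germline and yolk markers moved with egl-9;vhl-1 as well. Against N2, 9 of 10 oocyte genes were called higher, 7 of 9 sperm genes lower and 3 of 6 yolk genes lower (edgeR). The sperm genes summed to 439 to 546 CPM in egl-9;vhl-1, against 763 to 1237 CPM in N2, and the oocyte genes to 11378 to 12030 CPM in egl-9;vhl-1, against 8006 to 9221 CPM in N2. Of the 9 sperm genes, 7 were also called lower against vhl-1 and 4 against egl-9. The part of these markers in the changes of the gst genes was not tested.

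Set directly against vhl-1, egl-9 had 3 members called higher and 8 lower, while 12% of all tested genes were called, 7.62% higher and 4.33% lower. The lower ones included gst-38 (−2.89 ± 0.45), gst-10 (−1.20 ± 0.20), gst-4 (−1.14 ± 0.21) and gst-20 (−0.83 ± 0.18), with edgeR adjusted p of at most 0.00443. gst-38 was at 2.37, 2.53 and 1.87 CPM in egl-9, against 32.0, 10.4 and 7.71 CPM in vhl-1. gst-4 was at 52.1, 59.0 and 51.2 CPM in egl-9, against 74.0, 183 and 100 CPM in vhl-1. Neither pair of groups overlapped, though the vhl-1 libraries were uneven. gst-19 did not differ past the threshold between egl-9 and vhl-1 (0.90 on the log2 scale). Between egl-9;vhl-1 and vhl-1 its change was 1.30 ± 0.40 (edgeR adjusted p = 0.0308), which was not called by DESeq2 (0.387), nor without vhl-1 replicate 1 (0.117) or vhl-1 replicate 3 (0.0545), nor without any of the egl-9;vhl-1 libraries (0.0599 to 0.0859). With only egl-9 and vhl-1 fitted, 4 members were called between them, and gst-4 (edgeR adjusted p = 0.0706) and gst-20 (0.053) were not. In that fit 6.41% of all tested genes were called. The count of members was 7 without egl-9 replicate 3 and also without vhl-1 replicate 2, with 8.19% and 11.8% of all tested genes.

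**Figure D3:**
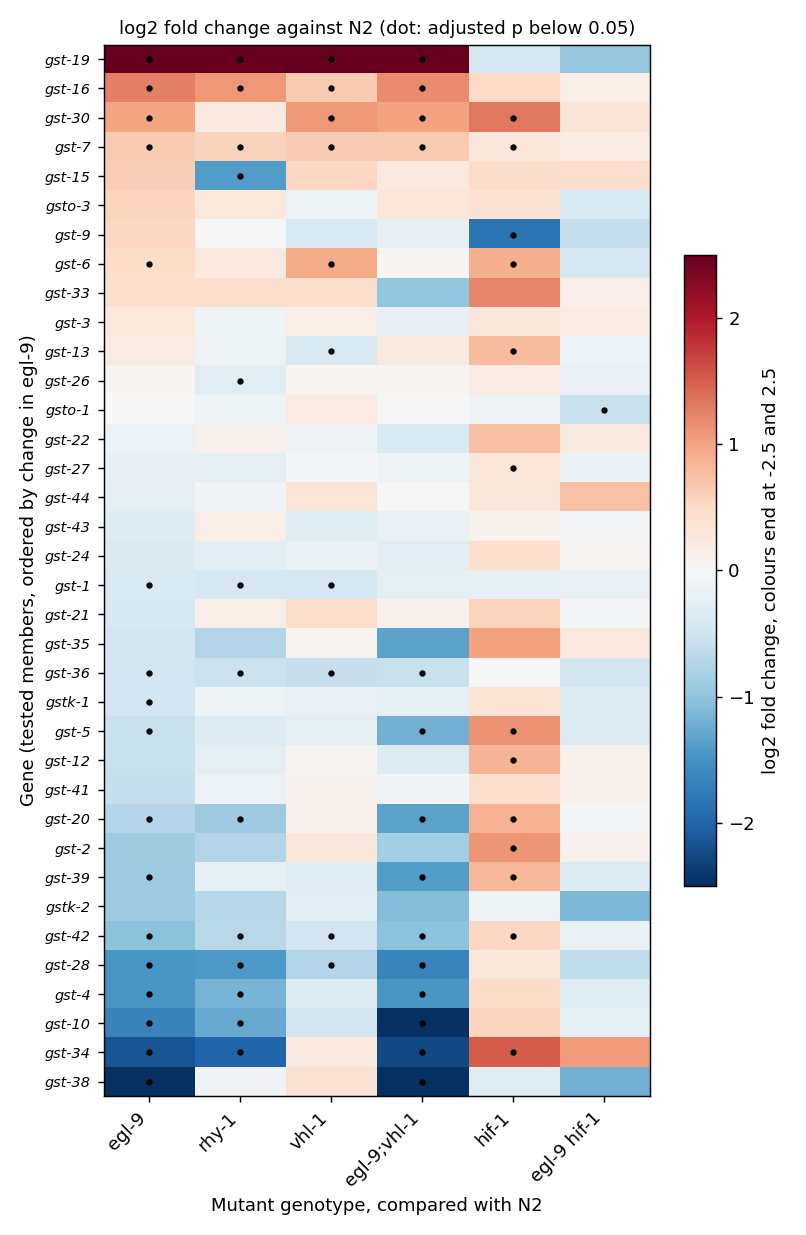
log2 fold change of the 36 tested members in each mutant against N2 (columns), ordered from high to low by their change in egl-9 (rows); red is higher and blue lower in the mutant, and a dot marks an edgeR adjusted p below 0.05. The top and bottom of the egl-9 column carry most of its dots, the hif-1 column is mostly red, and the egl-9 hif-1 column holds 1 dot, at gsto-1.

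In hif-1, gst-5, gst-13, gst-6 and gst-20 were among 12 members that rose. In all, 12 of 36 tested members were called higher (33.3%) and 1 lower (2.78%) in hif-1 against N2, while 14.4% of all tested genes were called, 8.21% higher and 6.14% lower. The share of members called higher was above that of all genes. The median change was 0.46 for the members and 0.04 for all genes. Of the 36 tested members, 22 had their highest genotype mean in hif-1, a description with no matching share of all tested genes given here. The count of calls was 6 without N2 replicate 2, 7 without hif-1 replicate 2 and 7 without hif-1 replicate 3. The share of all tested genes called was 6.33%, 8.32% and 6.24% in these fits.

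gst-5 was at 121, 132 and 114 CPM in hif-1, against 54.1, 50.5 and 64.7 CPM in N2. The change was 1.12 ± 0.13 (edgeR adjusted p = 1.78e-05). gst-13 was at 149, 143 and 145 CPM in hif-1, against 86.8, 78.5 and 85.4 CPM in N2, a change of 0.80 ± 0.11 (edgeR adjusted p = 9.78e-05). The groups did not overlap for either gene. gst-6 was at 36.5, 33.4 and 43.2 CPM in hif-1, against 17.5, 21.4 and 21.4 CPM in N2 (0.91 ± 0.15, edgeR adjusted p = 9.17e-04). gst-20 was at 87.0, 103 and 78.0 CPM in hif-1, against 48.7, 45.8 and 51.5 CPM in N2 (0.88 ± 0.18, edgeR adjusted p = 0.00333). Both genes were clear of N2 in every hif-1 library. The calls of gst-5, gst-6, gst-13, gst-20 and gst-30 in hif-1 held in every alternative.

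Other changes in hif-1 were smaller. gst-42 was at 43.5, 44.1 and 44.3 CPM in hif-1, against 29.0, 26.6 and 37.04 CPM in N2, with no overlap. Its change of 0.51 ± 0.13 (edgeR adjusted p = 0.0142) lost its call without N2 replicate 1 (0.0576), N2 replicate 2 (0.0836) or hif-1 replicate 2 (0.0502). The change of gst-7, 0.29 ± 0.08, lost its call without N2 replicate 1 (edgeR adjusted p = 0.0669) or hif-1 replicate 2 (0.13). gst-27, at 131, 132 and 130 CPM in hif-1 against 111, 99.9 and 110 CPM in N2, changed by 0.29 ± 0.10 (edgeR adjusted p = 0.0454), and 15 of 27 alternatives ended that call, up to an edgeR adjusted p of 0.169 without N2 replicate 2. gst-10 was higher in every hif-1 library, at 270, 279 and 283 CPM, than in any N2 library, but was not called (0.56 ± 0.19, edgeR adjusted p = 0.0524). DESeq2 called it (0.0317), as did the fit of only hif-1 and N2 (0.0156). The call was also made when vhl-1 replicate 1 or 2, egl-9 replicate 1 or 2, or rhy-1 replicate 1 or 3 was left out (edgeR adjusted p = 0.0251 to 0.0485). gst-4, at 206, 187 and 233 CPM in hif-1, was likewise above N2 and not called (0.48 ± 0.20, edgeR adjusted p = 0.108), but was called with only hif-1 and N2 fitted (0.0208) and without vhl-1 replicate 2 (0.00777) or vhl-1 replicate 1 (0.0412). The lone member called lower was gst-9, a low gene with 4, 1 and 2 counts in hif-1 against 8, 10 and 8 in N2, whose call 12 of 27 alternatives ended.

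Intestinal markers moved with these rises. The summed level of 9 intestinal genes was 4536 to 5229 CPM in hif-1, against 3364 to 3880 CPM in N2, and 4 of the 9 were called higher in hif-1 and 0 lower (edgeR). The summed level of 10 oocyte genes was 7469 to 8110 CPM in hif-1, against 8006 to 9221 CPM in N2, with 0 of the 10 called higher and 3 lower. The 9 sperm genes summed to 1032 to 1619 CPM in hif-1, against 763 to 1237 CPM in N2, with 2 called higher and 0 lower. Of all tested genes, 8.21% were called higher and 6.14% lower in hif-1. The part of these markers in the changes of the gst genes was not tested. In egl-9 the intestinal sum was 4287 to 4630 CPM, with 3 of the 9 called higher and 2 lower, against 14.8% and 11% of all tested genes. The 6 yolk genes summed to 55155 to 88452 CPM in egl-9, against 104478 to 138868 CPM in N2, and their part in the falls was not tested either.

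In egl-9 hif-1 against N2, 0 of 36 tested members were called higher and 1 lower, while 6.55% of all tested genes were called, 3.49% higher and 3.06% lower (edgeR). An unadjusted p below 0.05 was reached by 10 members, with no matching share of all tested genes given here, so this count does not set the family apart. The 1 call was gsto-1, an omega class gene, at 9.45, 11.2 and 8.63 CPM in egl-9 hif-1 against 15.4, 14.6 and 12.9 CPM in N2. The groups did not overlap, and the change was −0.55 ± 0.15 (edgeR adjusted p = 0.0355). It was lost with only these genotypes fitted (0.12) and without N2 replicate 1 (0.0891), N2 replicate 2 (0.109), hif-1 replicate 2 (0.0542), egl-9 hif-1 replicate 1 (0.0998) or egl-9 hif-1 replicate 3 (0.189). The estimated counts of gsto-1 were more than 0.01 off a whole number in 21 of 21 libraries, and the gene overlaps kle-2 on the opposite strand, so its level is uncertain in these unstranded libraries. By DESeq2 2 members were called. The count reached 3 without N2 replicate 1, and it was 2 without vhl-1 replicate 1 or vhl-1 replicate 3, and 0 without N2 replicate 2 or hif-1 replicate 2.

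In egl-9 hif-1, gst-19 was low again and gst-10 and gst-4 were high again relative to egl-9. There were 8 members called higher and 7 lower in egl-9 hif-1 against egl-9, while 21.4% of all tested genes were called, 8.18% higher and 13.2% lower. gst-19 fell to 0.239, 2.20 and 3.41 CPM in egl-9 hif-1, against 314, 387 and 393 CPM in egl-9 (−7.50 ± 0.59, edgeR adjusted p = 1.46e-08). gst-7, gst-16 and gst-6 fell with it, by 0.46, 1.09 and 0.89 on the log2 scale. gst-10 was at 152, 133 and 192 CPM in egl-9 hif-1, against 73.3, 48.7 and 55.9 CPM in egl-9 (1.42 ± 0.20, edgeR adjusted p = 2.10e-05). gst-4 was at 116, 136 and 112 CPM in egl-9 hif-1, against 52.1, 59.0 and 51.2 CPM in egl-9 (1.17 ± 0.21, edgeR adjusted p = 3.15e-04). Neither gene overlapped between the genotypes. Of the 12 members called lower in egl-9 against N2, 6 were called higher in egl-9 hif-1 against egl-9, namely gst-4, gst-10, gst-20, gst-28, gst-34 and gst-42. The calls of gst-20 and gst-28 in egl-9 hif-1 ended without egl-9 hif-1 replicate 3 (edgeR adjusted p = 0.0891 and 0.0709). These counts share the egl-9 libraries and are given side by side, not as a test, with no matching overlap for all tested genes.

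Set against hif-1, the egl-9 hif-1 worms had lower levels across the family. Here 0 of 36 tested members were called higher and 18 lower (50%), while 30.5% of all tested genes were called, 12.8% higher and 17.7% lower. The largest falls among members over 10 CPM were those of gst-5 (−1.46 ± 0.13), gst-6 (−1.33 ± 0.16), gst-13 (−0.95 ± 0.11), gst-20 (−0.91 ± 0.18) and gst-28 (−0.91 ± 0.19), with edgeR adjusted p of at most 0.00207. gst-5 was at 39.2, 43.6 and 50.1 CPM in egl-9 hif-1, against 121, 132 and 114 CPM in hif-1. gst-13 was at 76.6, 69.5 and 80.1 CPM in egl-9 hif-1, against 149, 143 and 145 CPM in hif-1. Both were clear of each other in all libraries. Of the 12 members called higher in hif-1 against N2, 10 were called lower in egl-9 hif-1 against hif-1, and both comparisons share the hif-1 libraries. Genes picked as high in those libraries tend to look lower when set against them. No matching overlap for all tested genes is given here. The median change was −0.63 for the members and −0.08 for all genes. The intestinal markers summed to 2654 to 3376 CPM in egl-9 hif-1, against 4536 to 5229 CPM in hif-1, and 7 of the 9 were called lower (edgeR). The oocyte genes summed to 10587 to 11452 CPM in egl-9 hif-1, against 7469 to 8110 CPM in hif-1, and 9 of 10 were called higher. The sperm genes summed to 831 to 935 CPM in egl-9 hif-1, against 1032 to 1619 CPM in hif-1, and 8 of 9 were called lower. The part of these 3 marker lists in the fall of the gst genes was not tested.

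**Figure D4:**
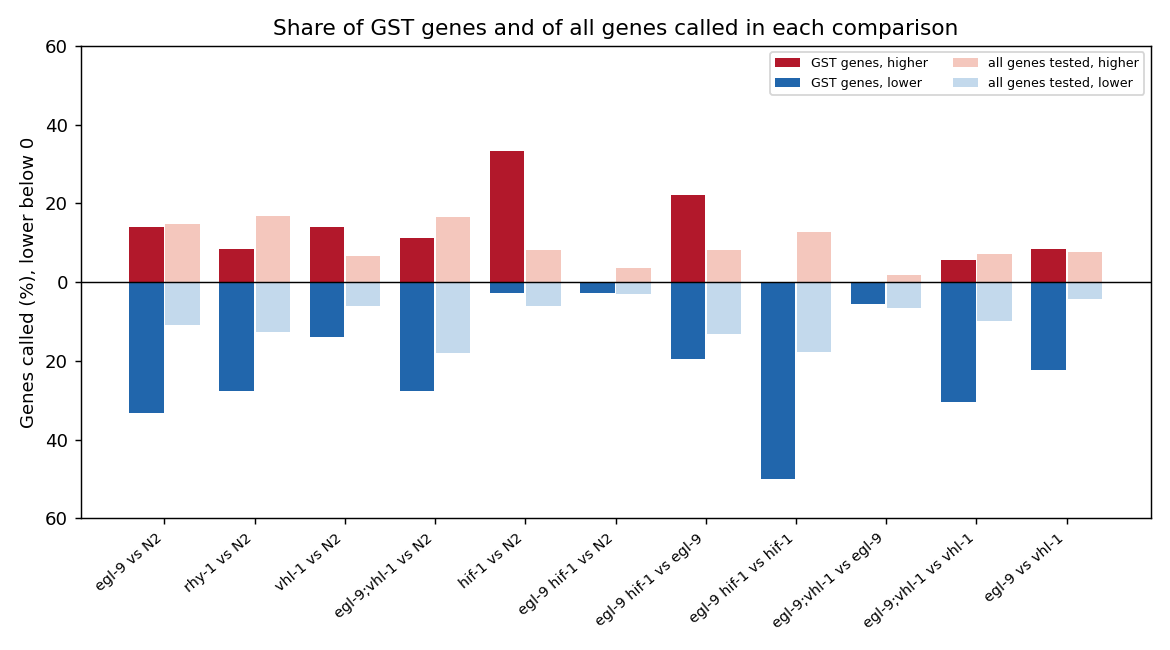
Share of tested genes called higher (above 0) or lower (below 0) in each of 11 pairwise comparisons (x axis), in percent, for the 36 tested glutathione S-transferase genes (dark bars) and all 13043 tested genes (pale bars). The dark bars exceed the pale ones most for lower calls in egl-9 hif-1 against hif-1 (50% and 17.7%) and for higher calls in hif-1 against N2 (33.3% and 8.21%).

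Whether the effect of egl-9 loss differed between worms with and without hif-1 was tested directly. The interaction is the log2 change in egl-9 hif-1 minus the sum of the changes in egl-9 and hif-1, all against N2. For 1 tested member it was called above 0 and for 9 below 0, while 22.1% of all tested genes were called, 8.42% above 0 and 13.7% below 0. The interaction was −7.06 ± 0.97 for gst-19, −1.80 ± 0.22 for gst-6, −1.58 ± 0.29 for gst-16, −1.15 ± 0.15 for gst-13 and −0.91 ± 0.18 for gst-5, with edgeR adjusted p of at most 0.00113. gst-19 had few counts in N2, hif-1 and egl-9 hif-1, so the size of its interaction is uncertain. The levels behind the negative sign differed between these genes. For gst-19 and gst-16, the level was called higher in egl-9 against N2 and was not called in egl-9 hif-1 against N2 or hif-1. For gst-13, egl-9 worms had 102, 89.9 and 96.5 CPM, not called against N2, while it was called lower in egl-9 hif-1 against hif-1. For gst-5, the change was −0.55 in egl-9 against N2 and −1.46 in egl-9 hif-1 against hif-1. For gst-6, it was 0.47 in egl-9 against N2 and −1.33 in egl-9 hif-1 against hif-1.

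Among the genes that fell in egl-9, gst-5 is described above, and gst-4, gst-42 and gst-10 gave another pattern. gst-4 and gst-42 were lower with egl-9 loss both with hif-1 (−1.46 and −1.03 against N2) and without it (−0.78 and −0.67 in egl-9 hif-1 against hif-1), and neither interaction was called. gst-10 was also lower in both, by 1.66 in egl-9 against N2 and by 0.80 in egl-9 hif-1 against hif-1. Its interaction was 0.86 ± 0.27 (edgeR adjusted p = 0.0278), which lost its call without N2 replicate 1 (0.0767), egl-9 replicate 2 (0.0607), egl-9 replicate 3 (0.0639), hif-1 replicate 1 (0.0513) or egl-9 hif-1 replicate 3 (0.0694). An interaction that misses the threshold does not show that the effects were equal.

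**Figure D5:**
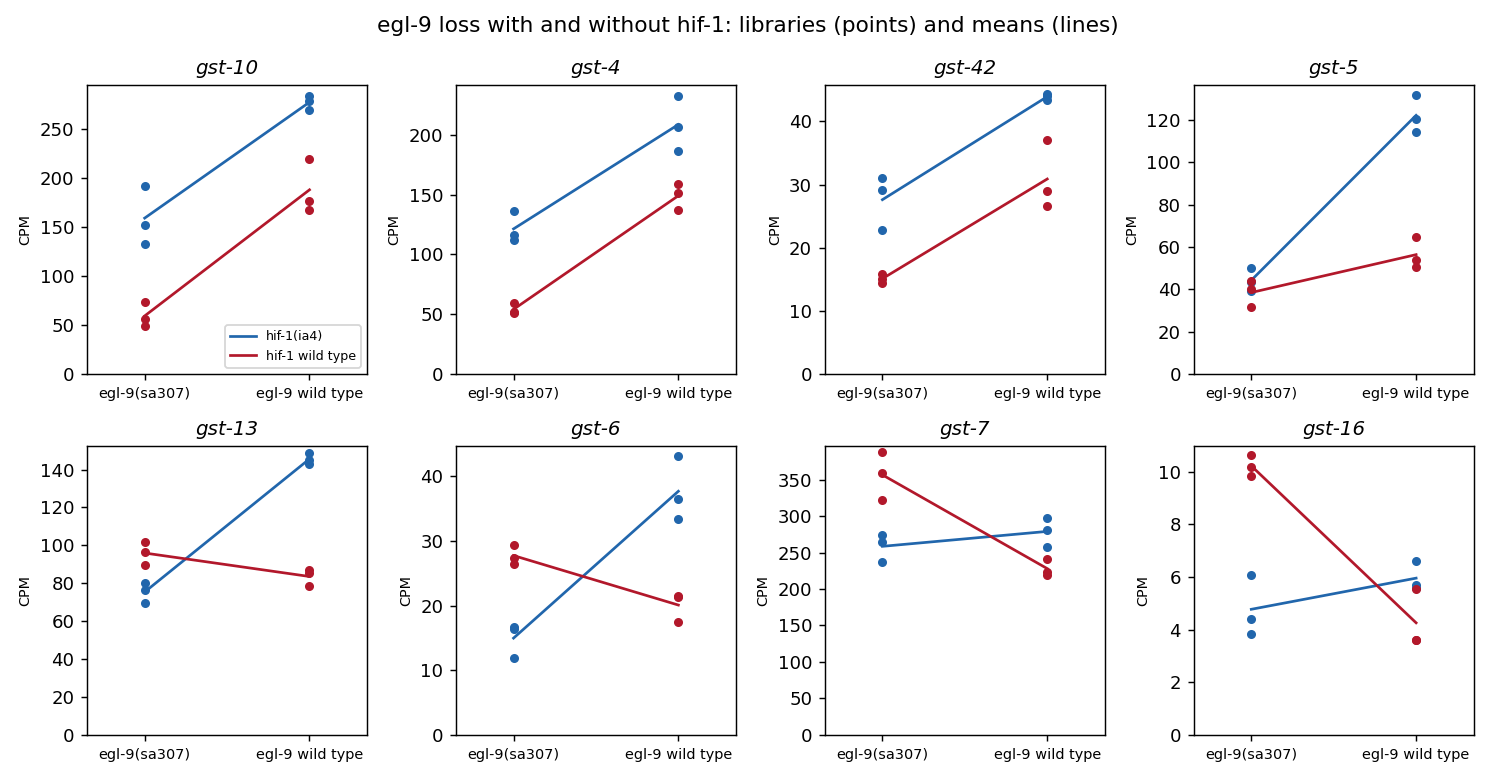
Level (CPM, y axis) of 8 members in worms with the egl-9(sa307) mutation (left) and with wild-type egl-9 (right), for hif-1(ia4) worms (blue) and worms with wild-type hif-1 (red); points are libraries and lines join genotype means. On this linear axis the lines run side by side for gst-10, gst-4 and gst-42, and they cross for gst-13, gst-6, gst-7 and gst-16. The interactions were tested on the log2 scale, where side-by-side lines need not mean equal changes.

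The interaction of egl-9 with vhl-1 was tested in the same way. It was called above 0 for 1 tested member and below 0 for 3, while 8.79% of all tested genes were called, 3.06% above 0 and 5.73% below 0. It was −5.26 ± 0.66 for gst-19, −1.37 ± 0.22 for gst-6 and −0.63 ± 0.11 for gst-7, with edgeR adjusted p of at most 0.00125. The size for gst-19 depended on its few counts in N2. For gst-19 and gst-7 the level with both mutations was less than the sum of the log2 changes of egl-9 and vhl-1 would give. For gst-6, at 20.5, 22.05 and 18.8 CPM in egl-9;vhl-1 and 34.4, 47.9 and 32.2 CPM in vhl-1, the level with both mutations was near that of N2. The interaction of gst-1 was 0.58 ± 0.15 (edgeR adjusted p = 0.0219), and it lost its call with only these 4 genotypes fitted (0.0788) and without any 1 of 6 libraries. Those were N2 replicate 2 (0.0526), N2 replicate 3 (0.0512), egl-9 replicate 1 (0.0591), vhl-1 replicate 2 (0.069), egl-9;vhl-1 replicate 1 (0.0553) and egl-9;vhl-1 replicate 3 (0.0521).

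Across the 6 comparisons with N2, 25 of 36 tested members were called in at least 1 and 11 in none. No matching count over all tested genes is given here, so these counts do not set the family apart. Of all tested genes, 6.55 to 34.6% were called in each of the 6 comparisons. The 11 were gst-3, gst-21, gst-22, gst-24, gst-33, gst-35, gst-41, gst-43, gst-44, gstk-2 and gsto-3, all of them under 10 CPM in every genotype mean. gst-43 was at 2.37, 1.60 and 1.40 CPM in egl-9 against 2.79, 1.53 and 2.41 CPM in N2, with overlapping groups (−0.33 ± 0.28, edgeR adjusted p = 0.432). Between egl-9 and vhl-1, each set against N2, no member had calls of opposite sign, which was not counted for all tested genes here.

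Genes around the family were examined from lists written from general knowledge, but with earlier results of these data known. Of 20 tested genes of glutathione synthesis, reduction and use, 2 rose and 3 fell in egl-9, where 14.8% of all tested genes were called higher and 11% lower. In egl-9;vhl-1, 2 rose and 4 fell, with 16.5% and 18.1% of all tested genes. The list's median change in egl-9 was −0.13, against 0.00 for all genes. ethe-1, the persulfide dioxygenase that uses glutathione persulfide, was at 77.6, 99.7 and 90.3 CPM in egl-9, against 12.5, 13.4 and 12.4 CPM in N2 (2.80 ± 0.11). Its change was 2.31 in rhy-1, 2.34 in vhl-1 and 3.10 in egl-9;vhl-1, all called. gpx-5, of the glutathione peroxidase family, rose in egl-9 (2.41 ± 0.17), rhy-1 (2.32) and egl-9;vhl-1 (2.37). It averaged 95.9 CPM in vhl-1, against 107 CPM in N2. gcs-1, the enzyme of the first step of glutathione synthesis, fell by 0.31 on the log2 scale in egl-9 (edgeR adjusted p = 0.00277).

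For the other genotypes the count of this list hung on single libraries. In rhy-1, 3 rose and 4 fell, with 16.7% and 12.8% of all tested genes, and 2 rose and 2 fell when N2 replicate 1, N2 replicate 2 or rhy-1 replicate 3 was left out. In vhl-1, 1 rose and 4 fell, with 6.54% and 5.95% of all tested genes. Only 2 fell there when N2 replicate 2, N2 replicate 3 or any vhl-1 library was left out. In hif-1, 1 rose and 1 fell, with 8.21% and 6.14% of all tested genes, and the total was 1 when N2 replicate 1, N2 replicate 2 or hif-1 replicate 2 was left out and 0 when hif-1 replicate 3 was. In egl-9 hif-1, 0 rose and 0 fell by edgeR and by DESeq2, with 3.49% and 3.06% of all tested genes, and 1 fell when egl-9;vhl-1 replicate 1 was left out.

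skn-1 was the regulator of the family that was called in most genotypes. It was at 178, 207 and 189 CPM in egl-9, against 141, 129 and 131 CPM in N2, a change of 0.52 ± 0.06 (edgeR adjusted p = 3.79e-06). It changed by 0.42 in rhy-1, 0.79 in vhl-1 and 0.56 in egl-9;vhl-1, and these 4 calls held in every alternative. gst-4, a reporter of this factor, fell in egl-9, rhy-1 and egl-9;vhl-1. Of 10 tested regulators, 0 fell in any genotype against N2, while 3.06 to 18.1% of all tested genes were called lower in each. With 10 genes, that count does not set the regulators apart. In egl-9 1 rose and in egl-9;vhl-1 3 did, with 14.8% and 16.5% of all tested genes called higher. In rhy-1 2 rose, with 16.7% of all tested genes, and 1 when N2 replicate 2 or rhy-1 replicate 1 was left out. In vhl-1 2 rose, with 6.54% of all tested genes, and 19 of 27 alternatives left 1. In hif-1 3 rose, with 8.21% of all tested genes, namely skn-1, hlh-30 and elt-2. That count was 0 without N2 replicate 2, N2 replicate 3, hif-1 replicate 2 or hif-1 replicate 3, and 1 without hif-1 replicate 1. In egl-9 hif-1 1 rose, with 3.49% of all tested genes, and 0 when N2 replicate 2, egl-9 hif-1 replicate 2 or egl-9 hif-1 replicate 3 was left out.

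Among 10 tested conjugate transporters, 1 rose and 2 fell both in egl-9 and in egl-9;vhl-1, where 14.8% and 16.5% of all tested genes were called higher and 11% and 18.1% lower. With only egl-9 and N2 fitted, 0 were called in egl-9. mrp-3, an ABC transporter of the MRP family, changed by −0.78 in egl-9;vhl-1 and by 0.54 in hif-1, calls that held in every alternative. Of 7 tested proteins with a glutathione S-transferase fold outside these names, 2 rose and 1 fell in egl-9;vhl-1, a count that was 3 in every alternative. The elongation factor subunit eef-1G was among those that rose, with a change of 0.38 (edgeR adjusted p = 0.00107). The calls of these last lists in the remaining genotypes were at most 3 of a list, and most of these counts changed when single libraries were left out.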

How the data were processed

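Whole-worm RNA was made into SmartSeq2 libraries, per the labels' protocols, and bcl2fastq 1.8.4 and kallisto are named in the submitters' processing notes. No source used here gives the transcript set, kallisto version or genome build. Per the file headers, the authors deposited estimated counts and TPM for each of 32905 transcripts in each library. The deposited estimated counts were whole within 1e-06 in 66.6% of values. They were summed per gene of Ensembl 115 (WBcel235) and rounded, and the deposited TPM values were summed per gene without rounding. By transcript name 28369 transcripts matched, by sequence name 4229, and 307 unmatched transcripts, with 0.102 to 0.127% of a library's counts, were kept as genes of their own.

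All 13043 genes that passed edgeR's expression filter (minimum count 10) were tested with edgeR 4.0.16 (R 4.3.3), by a quasi-likelihood F-test with TMM scaling and genotype as the only term over 21 libraries, with 14 residual degrees of freedom and a common biological coefficient of variation of 0.15. There were 11 pairwise comparisons and 2 interactions, each with Benjamini-Hochberg adjustment over all genes tested. CPM are TMM-scaled. Standard errors were derived as the absolute log2 change over the root of F. Levels are compared between genes only by TPM.

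The members and the lists were chosen with earlier results of these data known. Named members are, for each comparison with N2, the called ones of at least 10 CPM with the 8 largest changes in each direction, the 5 largest for the other comparisons and interactions, 7 members fixed by name and the 5 with the highest mean TPM. Members under 10 CPM are named as low genes. Alternatives were RLE scaling, no filter, a minimum count of 30, DESeq2 1.42.0, a replicate block, fits of only the genotypes compared and leaving out each library. The same alternatives were run on the surrounding gene lists, a choice made after seeing the data. The method was tested on simulated counts. No sequence is shown, and a motif search was not run. Counts limit precision for low members.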

Additional observations from a re-analysis of the deposited data

Results flagged for a closer look

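The interactions of egl-9 with hif-1 and with vhl-1 tested whether the effect of egl-9 loss differed between genetic backgrounds, and each member called is given here on the log2 scale (edgeR, Benjamini-Hochberg adjusted). With hif-1 the interaction was −7.06 for gst-19, −1.98 for gst-30, −1.80 for gst-6, −1.58 for gst-16, −1.30 for gsto-3, −1.15 for gst-13, −0.91 for gst-5, −0.76 for gst-7, −0.42 for gst-26 and 0.86 for gst-10. Of these, gst-30 and gsto-3 were low genes, with 2.49, 5.45 and 6.66 CPM of gst-30 and 4.15, 4.52 and 5.96 CPM of gsto-3 in egl-9. The call of gst-26 (edgeR adjusted p = 0.0323) ended in 11 of 27 alternatives. With vhl-1 the interaction was −5.26 for gst-19, −1.37 for gst-6, −0.63 for gst-7 and 0.58 for gst-1.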

How the results depend on the processing

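Counts of called members moved by more than 1.5 times in these cases. With only the compared genotypes fitted, which leaves fewer libraries to estimate the spread, 11 members were called in egl-9 against N2, 5 in vhl-1 against N2, 0 in egl-9 hif-1 against N2, 4 in egl-9;vhl-1 against egl-9 and 4 in egl-9 against vhl-1. Of all tested genes, these fits called 18.3%, 7.83%, 2.07%, 4.90% and 6.41%, in the same order. The fit of all 21 libraries called 25.8%, 12.5%, 6.55%, 8.47% and 12%. In egl-9 hif-1 against N2, 0 members were called with no filter and 2 by DESeq2. These called 3.63% and 10.1% of all genes with an adjusted p. Leaving out 1 library gave 0 to 3 in egl-9 hif-1 against N2, 7 to 12 in egl-9 against vhl-1, 1 to 4 in egl-9;vhl-1 against egl-9, 6 to 15 in hif-1 against N2 and 3 to 10 in vhl-1 against N2. The share of all tested genes moved as well. It was 6.33% in hif-1 against N2 without N2 replicate 2, where 6 members were called. In vhl-1 against N2 it was 9.03% without N2 replicate 3, where 3 members were called.

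Replicate numbers did not pair the samples. Deviations of 63 same-numbered pairs had a median correlation of 0.014 (−0.29 to 0.25), and 14 were over 0.1. For 126 pairs with other numbers the median was −0.017 (−0.34 to 0.33), and 24 were over 0.1. With replicate number as a block the counts of members called were 17 in egl-9, 14 in rhy-1, 9 in vhl-1, 12 in hif-1, 1 in egl-9 hif-1 and 14 in egl-9;vhl-1 against N2, each within 1.5 times of the count without it.

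Signs turned in these values, none of which was called as reported. Leaving out 1 library gave −1.58 to 0.37 for gst-19 in egl-9 hif-1 and −1.13 to 0.87 in hif-1, and −0.12 to 0.047 for gst-27 in vhl-1. For gst-43 it gave −0.24 to 0.16 in egl-9 hif-1, −0.37 to 0.029 in egl-9;vhl-1, −0.13 to 0.27 in hif-1 and −0.042 to 0.36 in rhy-1. For gsto-1 it gave −0.072 to 0.16 in egl-9, −0.10 to 0.086 in egl-9;vhl-1 and −0.22 to 0.028 in hif-1. gsto-1 was at −0.0065 with no filter and −0.0050 with a minimum count of 30 in egl-9, and in egl-9;vhl-1 at −0.00062 with RLE scaling, −0.0137 with no filter, −0.0056 with a minimum count of 30 and −0.00019 by DESeq2. The cause was not tested. Of 4701 recomputed values of members, 258 lost and 16 gained a call.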
